A study of Homo sapiens with 16 samples.

Results

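Genes of fatty acid oxidation, peroxisomes and ketone bodies were followed in HepG2 cells, a human hepatoma line, after delivery of GPI-PLD or of LacZ by adenovirus. The 37 genes were chosen by name, with earlier results of these data known. They stand for mitochondrial and peroxisomal beta oxidation, the carnitine shuttle, electron transfer, ketone body enzymes, peroxisome assembly and PPAR control. All 37 had a probe set with a single gene symbol, 60 such probe sets in all, among 11963 genes on the array. Of these, 36 passed the filter on dim probe sets (mean signal of at least 188) and were tested among 8102 genes, while the long-chain dehydrogenase gene ACADL did not. The 4 groups combined 6 h or 12 h of culture with recombinant adenovirus expressing LacZ (the beta-galactosidase control) or GPI-PLD. GPI-PLD is the phospholipase D that cuts glycosylphosphatidylinositol anchors. Each group had 4 Affymetrix arrays, each made from 10 µg of total RNA. All 16 arrays came from virus-treated cells, and cells without virus were not analysed here. The labels give the hours of culture and do not state whether these were counted from virus delivery. They do not give the promoter or dose of either vector, and they do not state that replicate arrays are separate cultures. The p-values therefore refer to array-to-array spread, which may be technical.

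Beta oxidation shortens fatty acyl-CoA by repeated dehydrogenation, hydration, a further dehydrogenation and thiolysis. In mitochondria the acyl chain enters through the carnitine shuttle, and electrons from the first step pass through the electron transfer flavoprotein to the respiratory chain. Peroxisomes start with an oxidase that makes hydrogen peroxide, which catalase removes, and peroxins build the organelle and import its enzymes. In liver the nuclear receptor PPAR alpha controls many of these genes, and the acetyl-CoA they yield can be made into ketone bodies.

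The genes that changed did so with time, and all in one direction. Between 6 h and 12 h, 2 of the 36 tested genes fell in LacZ cells (5.56%, where 3.25% of all 8102 genes fell and 3.64% rose) and 6 fell in GPI-PLD cells (16.7%, where 5.07% fell and 4.6% rose), and 0 rose in either. The LacZ share is near that of all genes. Since the list was chosen with earlier results known, these shares describe it and do not test it. The genes that fell in both cell groups or in LacZ cells alone were the isomerase gene ECI2 and ETFA of the electron transfer flavoprotein, respectively. In GPI-PLD cells CAT, PEX11A, ACOX2, ETFB and PEX19 fell as well as ECI2. A call in 1 cell group alone does not show that the groups differ. In the direct test of that difference 0 of 36 members passed. The log2 differences in LacZ and GPI-PLD cells were -0.33 and -0.36 for ETFB and -0.34 and -0.40 for ACOX2. The changes were at most 1.37-fold, apart from 2.52-fold for PEX11A. No member passed the test between GPI-PLD and LacZ cells at 6 h or at 12 h. Folds here are on the scale of signal + 63, and a gene is said to have risen or fallen where limma gave a Benjamini-Hochberg adjusted p under 0.05 over the 8102 genes.

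Promoter sequences are shown for CAT, ECI2, ETFA and PEX11A, which fell with time, and for HADHA, whose window overlaps that of its partner gene HADHB. Each is the 250 bases before the gene's first base, 5′ to 3′ on the gene's strand, from RefSeq on GRCh38.p14. Capitals mark CCAAT (or its complement ATTGG) and GGGCGG (or its complement CCGCCC), the core letters of the CCAAT box and the GC box. In ETFA a CCGCCC and a CCAAT share letters. The CAT window lies on the plus strand at chr11:34438684-34438933, the upstream of 2 ECI2 windows on the minus strand at chr6:4135576-4135825, the ETFA window on the minus strand at chr15:76311470-76311719, the PEX11A window on the minus strand at chr15:89690755-89691004 and the HADHA window on the minus strand at chr2:26244633-26244882.
CAT: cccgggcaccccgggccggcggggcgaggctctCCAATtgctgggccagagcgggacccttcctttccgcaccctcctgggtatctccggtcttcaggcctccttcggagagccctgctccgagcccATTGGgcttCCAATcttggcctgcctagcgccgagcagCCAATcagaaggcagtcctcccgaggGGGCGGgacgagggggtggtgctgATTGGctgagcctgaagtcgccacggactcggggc
ECI2: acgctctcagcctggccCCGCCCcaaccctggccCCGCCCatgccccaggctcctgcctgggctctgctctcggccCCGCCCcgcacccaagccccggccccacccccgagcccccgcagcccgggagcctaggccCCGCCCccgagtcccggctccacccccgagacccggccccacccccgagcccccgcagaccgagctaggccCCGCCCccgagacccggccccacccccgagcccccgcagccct
ETFA: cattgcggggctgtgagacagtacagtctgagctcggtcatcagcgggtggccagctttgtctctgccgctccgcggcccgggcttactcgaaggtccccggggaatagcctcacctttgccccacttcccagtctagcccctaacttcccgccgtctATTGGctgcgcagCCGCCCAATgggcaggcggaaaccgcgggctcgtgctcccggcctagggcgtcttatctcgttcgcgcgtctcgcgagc
PEX11A: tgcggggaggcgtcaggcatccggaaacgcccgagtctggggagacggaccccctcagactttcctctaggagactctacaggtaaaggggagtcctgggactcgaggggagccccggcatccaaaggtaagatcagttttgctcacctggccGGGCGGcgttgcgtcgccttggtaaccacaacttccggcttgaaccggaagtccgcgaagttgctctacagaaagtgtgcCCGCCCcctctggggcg
HADHA: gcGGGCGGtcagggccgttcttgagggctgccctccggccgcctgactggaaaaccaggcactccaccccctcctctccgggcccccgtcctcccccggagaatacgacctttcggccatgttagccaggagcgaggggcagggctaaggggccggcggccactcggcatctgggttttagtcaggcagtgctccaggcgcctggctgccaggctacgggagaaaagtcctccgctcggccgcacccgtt

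The table held 41 such windows for 29 of the 37 genes and 9 windows for 6 of the 7 genes that fell with time. CAT showed 5 copies of CCAAT and 1 of GGGCGG, with the nearest CCAAT ending 31 bases before the gene. ECI2 had 5 copies of GGGCGG and 0 of CCAAT in the printed window, ETFA 1 and 2, and PEX11A 2 and 0. The 9 windows are not separate sequences, since the 2 of PEX19 share 232 bases and the 2 of ECI2 share 143. On either strand, GGGCGG was present in all 9, in 29 of 41 windows of the whole list (70.7%), and in 42.6% of 35116 RefSeq windows of the same length. CCAAT was present in 5 of the 9, in 10 of 41 (24.4%) and in 32% of all windows. By gene, with a match in any of its windows, GGGCGG was in 6 of the 6 that fell, 24 of 29 members (82.8%) and 46.2% of 27305 genes, and CCAAT in 4 of 6, 9 of 29 (31%) and 37%. The nuclear receptor motif AGGTCA was in 0 of 41 windows against 12.1% of all windows. AGGTCA repeated with 1 base between, the form that PPAR and RXR bind and which contains that motif, was in 0 of 41 against 0.0171% of all. The cyclic AMP element TGACGTCA was in 0 of 41 (1.65% of all) and the amino acid response element TGATGCAA in 0 of 41 (0.772% of all). The AGGTCA repeat, TGACGTCA and TGATGCAA are rare in all windows, so 0 of 41 says little about the members. Members without a window, ACOX2 and EHHADH among them, were not searched. The shares over all windows and all genes were not limited to genes tested here or matched to the members in any way. These counts describe letters in these windows only and do not show whether PPAR binds the genes.

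HADHA and HADHB encode the alpha and beta subunits of the mitochondrial trifunctional protein, which carries out the last steps for long chains. They lie head to head on chromosome 2, with HADHA on the minus strand and HADHB on the plus strand and 306 bases between their first bases, so that 194 bases of the 2 windows are the same DNA. The HADHA window held 1 GGGCGG at its far end and no CCAAT. The values of both genes are given with the mitochondrial enzymes.

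The arrays and the cells were checked first. Array medians ran from 304.5 to 377.6, and the mean correlation of an array with the others of its group from 0.942 to 0.966, lowest in the 4 GPI-PLD 12 h arrays (0.942 to 0.945). All 9 hepatocyte markers on the array passed the filter, ALB with signals from 76827 to 101093, and their summed signal averaged 381991 and 397783 in LacZ cells and 394692 and 410160 in GPI-PLD cells at 6 h and 12 h. Of the markers of other cell types on the array, 2 of 4 leukocyte, 4 of 6 fibroblast, 1 of 5 endothelial and 1 of 4 adipocyte genes passed it. The leukocyte genes that passed were LYZ (median 9346) and CD3E (423). The fibroblast genes were COL1A1 (753), DCN (394), COL1A2 (336) and PDGFRB (252), the endothelial gene PECAM1 (271) and the adipocyte gene CIDEC (739). Among those below the filter were PTPRC (median 106) and CD14 (49.5) of leukocytes, VWF (59.9) and CDH5 (16.3) of endothelium. Others below it were LUM (7.05) of fibroblasts and LEP (22.4) and PLIN1 (49.2) of adipocytes. The summed leukocyte markers, carried by LYZ, averaged 9337 and 12108 in LacZ cells and 9307 and 10217 in GPI-PLD cells at 6 h and 12 h, and their part in the changes with time was not tested. The GAPDH 3′ to 5′ signal ratio averaged 0.913 and 0.999 in LacZ cells and 0.951 and 0.974 in GPI-PLD cells at 6 h and 12 h, and its part was not tested either. GPLD1, the gene of the GPI-PLD enzyme, was read in a fit of every probe set without the filter. It did not pass the test between GPI-PLD and LacZ cells in any of its 5 probe sets. On the set with a 6 h mean of 307 with LacZ and 249 with GPI-PLD the log2 difference was -0.22 ± 0.30 (SE), and 0.18 ± 0.30 at 12 h. A dim set was higher with GPI-PLD at 6 h, with means of 71.6 against 25.1 (0.60 ± 0.22, unadjusted p 0.0122, adjusted p 0.9997) and overlapping arrays, and gave 0.07 ± 0.22 at 12 h. The other 3 sets differed by -0.08 to 0.37 at 6 h and -0.33 to 0.12 at 12 h. GPI-PLD cells are named by their label, and the vector's sequence is not given in the sources used here.

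Across the list, more genes were lower than higher at 12 h. In LacZ cells 26 of 36 had a lower mean at 12 h and 10 a higher mean, with a median log2 difference of -0.13 against 0.01 over all 8102 genes. Without LacZ 12 h replicate 4 that median was -0.082. In GPI-PLD cells 22 were lower and 14 higher with a median of -0.05 against 0.01 over all genes. It was -0.0063 without GPI-PLD 6 h replicate 4, -0.015 without GPI-PLD 12 h replicate 1, -0.031 without GPI-PLD 6 h replicate 2 and -0.074 without GPI-PLD 6 h replicate 3, so its size rests on single arrays. The contrasts with time in LacZ and in GPI-PLD cells share no array. In them 16 members were lower at 12 h in both, 4 higher in both and 16 opposite, against 2500, 2681 and 2921 of all genes. The sign was the same in both for 55.6% of members and 63.9% of all genes. Pearson's r of the 2 log2 differences was 0.466 across the 36 members and 0.417 across all genes. Spearman's rho was 0.361 across members and 0.378 across all genes. Genes are not independent replicates.

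**Figure D1:**
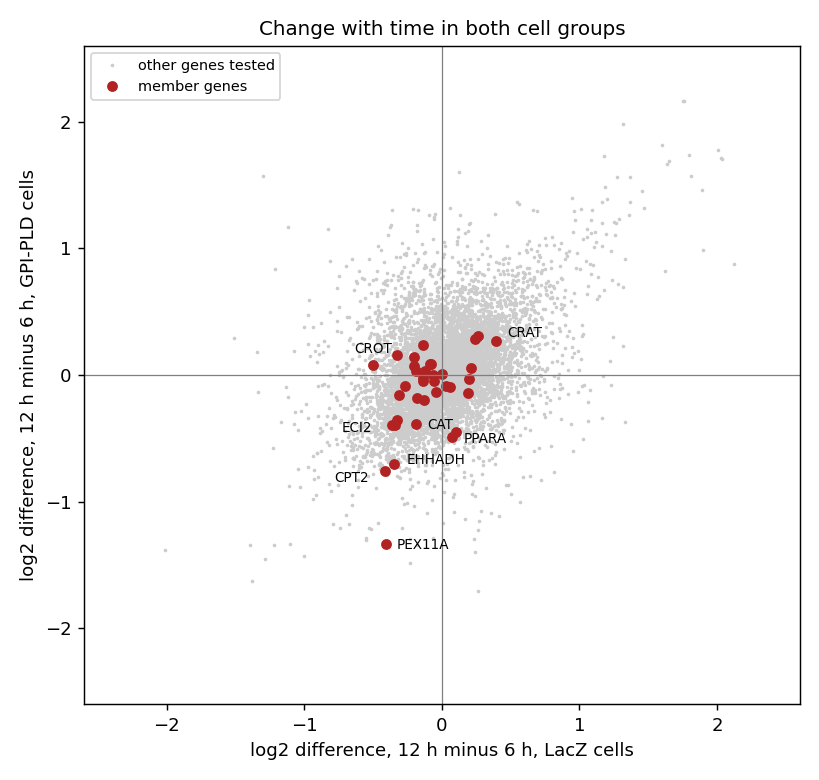
Log2 difference between 12 h and 6 h in LacZ cells (horizontal axis) and in GPI-PLD cells (vertical axis), with 1 point per tested gene, members in red and the other tested genes in grey. Of the 36 members 16 lie in the lower left quadrant, PEX11A lowest at -1.33 in GPI-PLD cells.

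**Figure D2:**
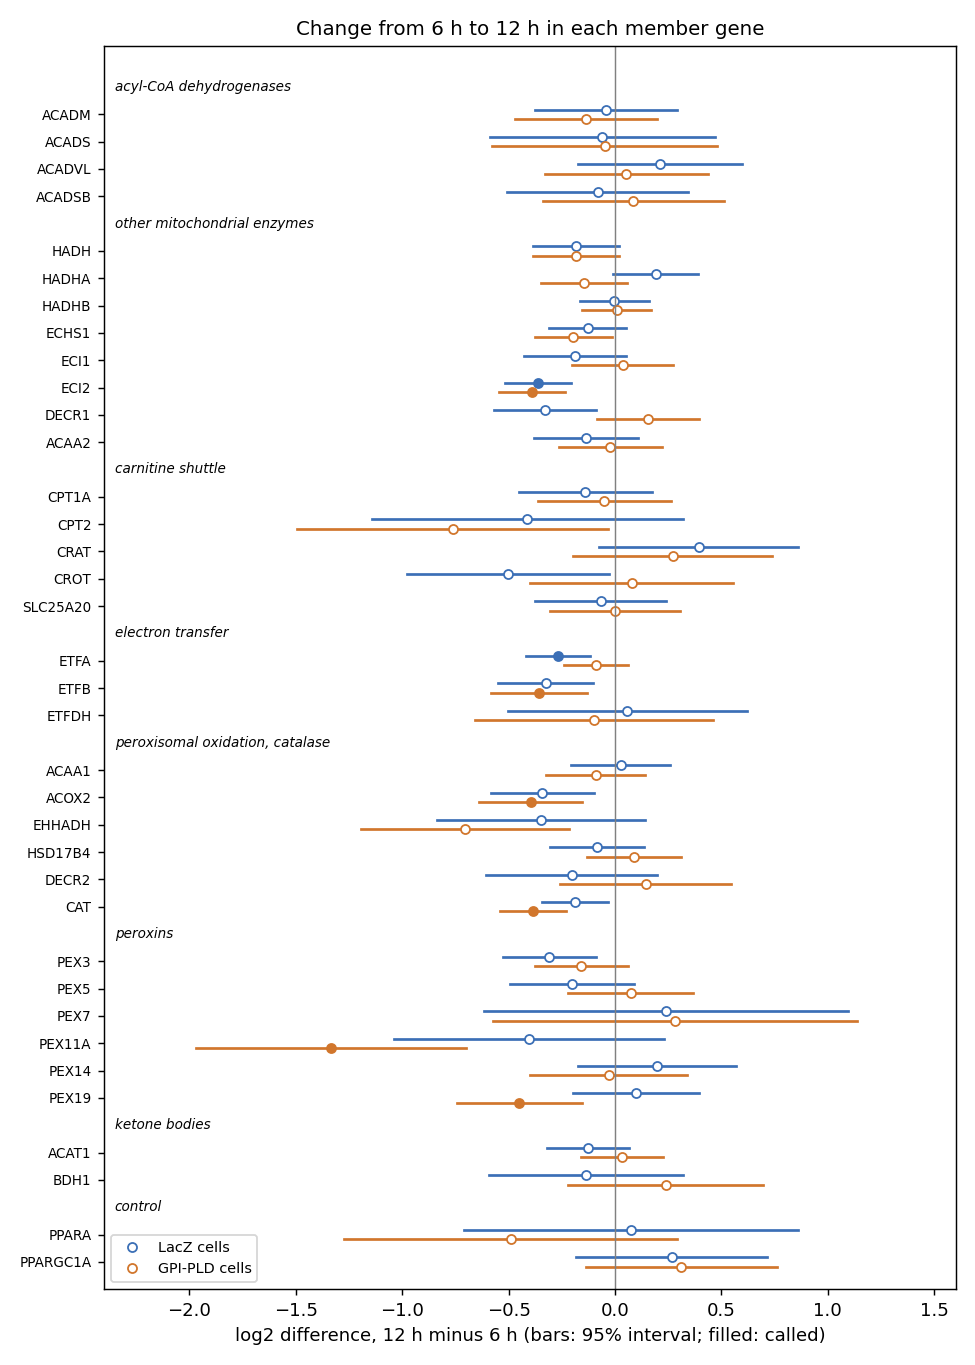
Log2 difference between 12 h and 6 h for each tested member, by role, in LacZ (blue) and GPI-PLD cells (orange), with 95% intervals and filled points where limma's adjusted p was under 0.05. The 8 filled points all lie below 0.

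Among the 8 enzymes listed here as mitochondrial after the first dehydrogenation, 7 were lower at 12 h with LacZ and 5 with GPI-PLD. The place of their proteins in the cell was not measured. Of the 8 genes, 1 fell in each cell group. ECI2, an isomerase that shifts double bonds so that unsaturated acyl-CoA can be oxidised, was that gene in both. ECI2 signals with LacZ were 7577, 6854, 8026 and 7127 at 6 h and 5817, 5465, 6116 and 5533 at 12 h. ECI2 signals with GPI-PLD were 6887, 7394, 7045 and 7069 at 6 h and 5153, 5686, 5292 and 5467 at 12 h. All 8 arrays of 12 h lay below all 8 arrays of 6 h. The group means fell from 7396 ± 515 to 5732 ± 298 (SD, n = 4) in LacZ cells, a log2 difference of -0.36 ± 0.07 (SE; adjusted p 0.00307), and from 7099 ± 213 to 5399 ± 229.9 in GPI-PLD cells, -0.39 ± 0.07 (adjusted p 0.00114). Between the viruses ECI2 differed by -0.06 ± 0.07 at 6 h and -0.08 ± 0.07 at 12 h, and neither passed. In bulk RNA a lower signal from fewer cells of a kind and from less RNA per cell cannot be told apart.

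Neither HADHA nor HADHB passed with time. HADHA signals with LacZ were 4446, 4955, 4814 and 3562 at 6 h and 4943, 5269, 4634 and 5355 at 12 h. HADHA signals with GPI-PLD were 5019, 5162, 4766 and 4874 at 6 h and 4060.4, 4465, 5006 and 4406 at 12 h. The times overlapped in both cell groups, with log2 differences of 0.19 ± 0.10 in LacZ cells (adjusted p 0.278) and -0.15 ± 0.10 in GPI-PLD cells (0.393). The difference between those 2 values, -0.34 ± 0.14, did not pass (0.566). The other HADHA probe sets gave -0.16 and 0.04 with time in LacZ cells and -0.08 and -0.17 in GPI-PLD cells, so the sign in LacZ cells depended on the probe set. HADHB had group means of 8558 ± 755, 8534 ± 571, 8488 ± 336 and 8536 ± 431 in LacZ 6 h, LacZ 12 h, GPI-PLD 6 h and GPI-PLD 12 h. The 95% interval of its log2 difference with time was -0.16 to 0.16 in LacZ cells and -0.15 to 0.17 in GPI-PLD cells. These intervals are unadjusted and rest on array-to-array spread, which may be technical.

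DECR1, the mitochondrial dienoyl-CoA reductase that also serves unsaturated chains, had opposite signs in the 2 cell groups. DECR1 signals with LacZ were 2831, 2298, 2696 and 3073 at 6 h and 2357, 2056, 2330.3 and 1883 at 12 h. DECR1 signals with GPI-PLD were 2080.1, 2463, 1985 and 2156 at 6 h and 2478, 2730.1, 2522 and 2004 at 12 h. The arrays of the 2 times overlapped in each cell group. The log2 difference with time was -0.33 ± 0.12 in LacZ cells (adjusted p 0.0959) and 0.16 ± 0.12 in GPI-PLD cells (0.452), and the difference between these changes, 0.48 ± 0.16, had an unadjusted p of 0.00716 and an adjusted p of 0.468. The remaining enzymes of this role did not pass in either time contrast. ECHS1, the hydratase, had -0.13 ± 0.09 in LacZ and -0.19 ± 0.09 in GPI-PLD cells, where its arrays did not overlap (adjusted p 0.182). HADH, the short-chain hydroxyacyl-CoA dehydrogenase, had -0.18 ± 0.10 and -0.18 ± 0.10. ECI1 and the thiolase gene ACAA2 lay between -0.19 and 0.04. In a fit of every probe set, another HADH set passed in GPI-PLD cells with -0.51 ± 0.13 (adjusted p 0.0159), and a further set gave -0.23 ± 0.16.

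None of the 4 tested acyl-CoA dehydrogenases passed, and their log2 differences with time lay between -0.14 and 0.21. ACADM, for medium chains, averaged 2538 ± 556 and 2453 ± 486 in LacZ cells and 2324 ± 339 and 2128 ± 430.0 in GPI-PLD cells at 6 h and 12 h. ACADVL, for very long chains, was the gene at 0.21 in LacZ cells, with an interval of -0.17 to 0.60. ACADS, for short chains, and ACADSB, for short branched chains, had estimates of no more than 0.09 with time in either cell group. Their intervals were wide, in LacZ cells -0.59 to 0.47 for ACADS and -0.51 to 0.34 for ACADSB. ACADL signals ran from 13.9 to 221 over the 16 arrays, below the filter on average, and were not tested.

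The electron transfer flavoprotein takes electrons from these dehydrogenases and hands them to ETFDH, its ubiquinone reductase. Both of its subunit genes were lower at 12 h in both cell groups, and 1 passed in each. ETFA signals with LacZ were 7163, 6953, 7445 and 7449 at 6 h and 5944, 5952, 6281 and 5861 at 12 h. ETFA signals with GPI-PLD were 6932, 6010.5, 6164 and 6964 at 6 h and 6214, 6225, 5994 and 6029 at 12 h. No LacZ array of 12 h reached any of 6 h, and ETFA fell by a log2 difference of -0.27 ± 0.07 (adjusted p 0.0245). In GPI-PLD cells the arrays overlapped, with -0.09 ± 0.07 (0.509), and the difference between the 2 changes was 0.18 ± 0.10 (0.711). The LacZ call was lost in 7 of 26 alternatives, among them without LacZ 6 h replicate 3 or 4 and without LacZ 12 h replicate 1, 2 or 4, with adjusted p up to 0.0652.

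ETFB encodes the beta subunit. ETFB signals with LacZ were 15308, 16346, 20126 and 14743 at 6 h and 12677, 13787, 12657 and 13546 at 12 h. ETFB signals with GPI-PLD were 14619, 15399.5, 17317 and 16369 at 6 h and 10876, 16240.2, 11645 and 11482 at 12 h. The 12 h LacZ arrays were all below the 6 h ones, and 3 of the 4 GPI-PLD 12 h arrays were below every 6 h array, the exception being replicate 2. ETFB fell in GPI-PLD cells by -0.36 ± 0.11 (adjusted p 0.0374), and in LacZ cells its difference of -0.33 ± 0.11 did not pass (0.0725). The GPI-PLD call was lost in 11 of 26 alternatives, with adjusted p up to 0.131. ETFDH gave 0.06 ± 0.27 and -0.10 ± 0.27, with intervals that hold the ETFB value in both cell groups, and its other probe set 0.21 ± 0.30 and 0.49 ± 0.30.

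Of the 5 carnitine shuttle genes 4 were lower at 12 h with LacZ and 3 with GPI-PLD, and 0 passed. CPT1A makes acylcarnitine at the outer membrane and is the entry step of mitochondrial oxidation. CPT1A signals with LacZ were 1659, 1507, 1878 and 1603 at 6 h and 1478, 1772, 1353 and 1423 at 12 h. CPT1A signals with GPI-PLD were 1886, 1686, 1015 and 1832 at 6 h and 1681, 1508, 1425 and 1426 at 12 h. All groups overlapped, replicate 3 of GPI-PLD 6 h was the lowest array, and the differences with time were -0.14 ± 0.15 and -0.05 ± 0.15. Its 3 other probe sets were dim, and their differences with time ran from -1.01 to 0.15 in LacZ cells and from -0.54 to -0.20 in GPI-PLD cells. CPT2, which returns the chain to CoA inside mitochondria, had -0.41 ± 0.35 and -0.76 ± 0.35 (adjusted p 0.196 in GPI-PLD cells), with GPI-PLD 12 h signals from 50.2 to 342. A dimmer CPT2 set, not tested, gave -1.56 ± 0.42 and -1.12 ± 0.42. CROT, which serves chains leaving peroxisomes, had 12 h arrays of 389 to 419.9 below 6 h arrays of 540.1 to 694 in LacZ cells (-0.50 ± 0.23, adjusted p 0.219) and 0.08 ± 0.23 in GPI-PLD cells. CRAT, the carnitine acetyltransferase, was the gene with higher means in both cell groups (0.39 ± 0.23 and 0.27 ± 0.23). The carnitine carrier SLC25A20 gave -0.07 ± 0.15 and -0.00 ± 0.15.

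**Figure D3:**
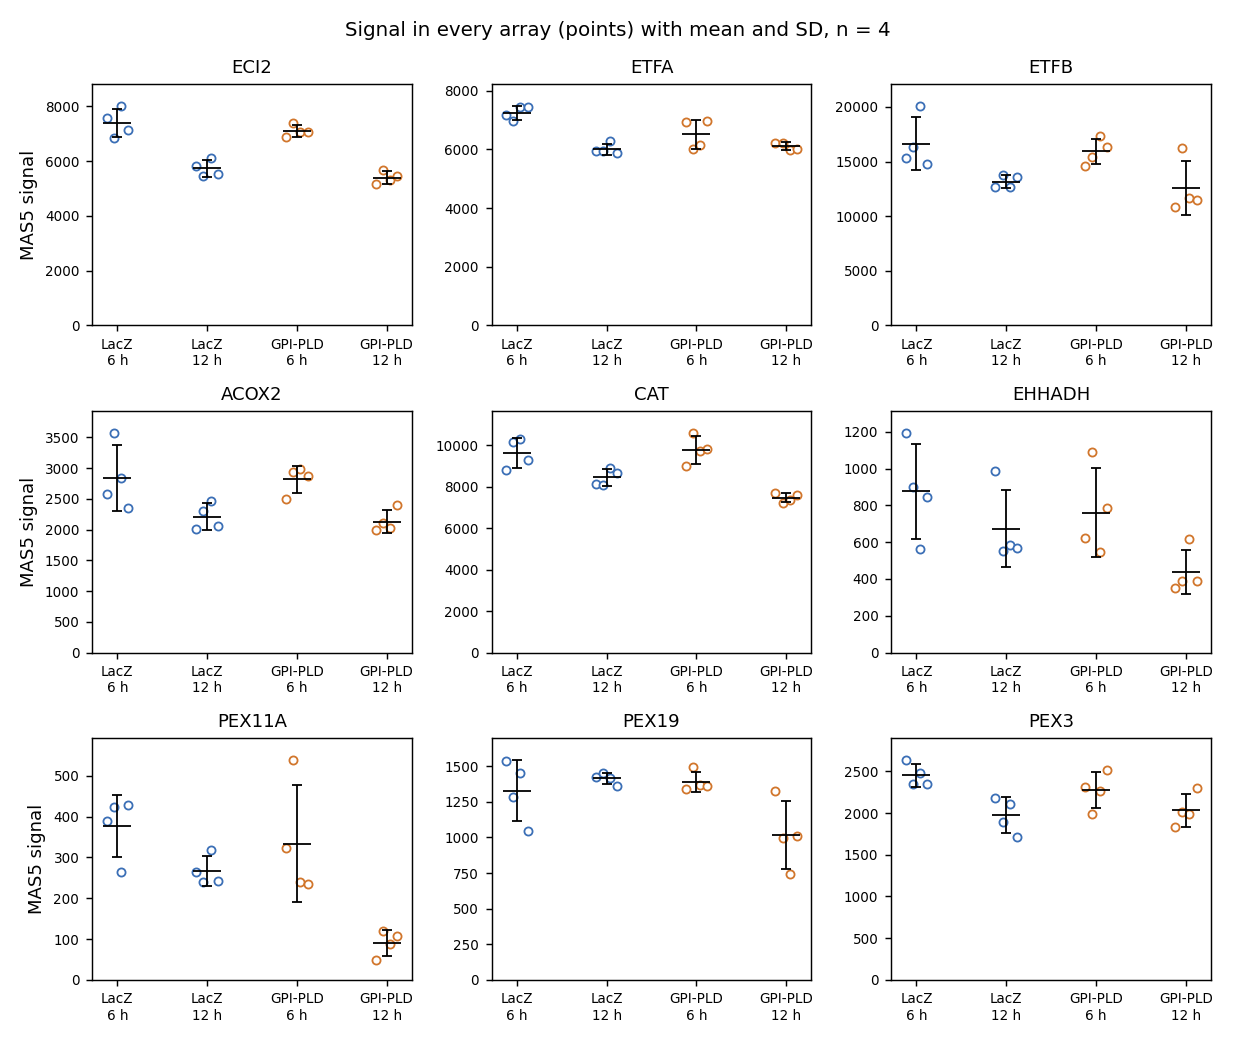
MAS5 signal of 9 members in every array (points), with the group mean and SD (n = 4), for LacZ (blue) and GPI-PLD cells (orange) at 6 h and 12 h. PEX11A in GPI-PLD cells drops from 235 to 539 at 6 h to 48 to 119 at 12 h, and the 12 h points of ECI2 lie below its 6 h points in both cell groups.

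Among the 6 genes of peroxisomal beta oxidation and catalase, 5 were lower at 12 h in LacZ cells, of which 0 passed, and 4 in GPI-PLD cells, of which CAT and ACOX2 fell. CAT encodes catalase, the peroxisomal enzyme that breaks down hydrogen peroxide. CAT signals with LacZ were 8794, 10169, 10330.4 and 9277 at 6 h and 8133, 8106, 8893 and 8684 at 12 h. CAT signals with GPI-PLD were 8984, 10606, 9720.1 and 9844 at 6 h and 7679.7, 7222, 7369 and 7627 at 12 h. The 4 GPI-PLD 12 h arrays were below all other 12 arrays, and in LacZ cells the times overlapped by 1 array of each. CAT fell in GPI-PLD cells from 9789 ± 665 to 7474 ± 216, a log2 difference of -0.38 ± 0.08 (adjusted p 0.00148), and gave -0.19 ± 0.08 in LacZ cells (0.157). Another CAT probe set had the larger difference in LacZ cells, -0.43 ± 0.11 (adjusted p 0.0182), and -0.32 ± 0.11 in GPI-PLD cells (0.0717). The third CAT set was dim and gave 0.66 ± 0.36 in GPI-PLD cells, and with the mean of the 3 sets the GPI-PLD call was lost (-0.02, adjusted p 0.969).

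ACOX2 encodes the peroxisomal oxidase for branched chains and bile acid precursors. ACOX2 signals with LacZ were 2576, 3576, 2846 and 2354 at 6 h and 2006, 2301, 2472 and 2056 at 12 h. ACOX2 signals with GPI-PLD were 2503, 2936, 2988 and 2867 at 6 h and 1991, 2108, 2023 and 2406 at 12 h. The GPI-PLD arrays of the 2 times did not overlap, and those of LacZ cells did. ACOX2 fell in GPI-PLD cells by -0.40 ± 0.12 (adjusted p 0.0329) and differed by -0.34 ± 0.12 in LacZ cells (0.0844). The GPI-PLD call was lost in 7 of 26 alternatives, 6 of which left out a GPI-PLD array, with adjusted p up to 0.0961.

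EHHADH, the peroxisomal bifunctional enzyme of straight chains, did not pass in either time contrast alone. EHHADH signals with LacZ were 1194, 899, 565 and 845 at 6 h and 985, 551, 583 and 570.0 at 12 h. EHHADH signals with GPI-PLD were 622, 1089, 548 and 784 at 6 h and 350.2, 391, 617 and 391 at 12 h. Its arrays spread widely and overlapped in both cell groups, with differences of -0.35 ± 0.24 (adjusted p 0.453) and -0.71 ± 0.24 (0.0613). HSD17B4, the other bifunctional enzyme, gave -0.08 ± 0.11 and 0.09 ± 0.11, the thiolase gene ACAA1 0.03 ± 0.11 and -0.09 ± 0.11, and the peroxisomal dienoyl-CoA reductase gene DECR2 -0.20 ± 0.19 and 0.14 ± 0.19. Another ACAA1 probe set was lower at 12 h in both cell groups, by -0.18 ± 0.10 and -0.23 ± 0.10, and did not pass.

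Of the 6 peroxins, 3 were lower at 12 h with LacZ and 4 with GPI-PLD, and PEX11A and PEX19 fell in GPI-PLD cells. PEX11A acts in the elongation and division of peroxisomes. PEX11A signals with LacZ were 389, 424, 265 and 429.8 at 6 h and 264, 240.5, 319 and 242 at 12 h. PEX11A signals with GPI-PLD were 322, 539, 239 and 235 at 6 h and 48, 119, 86.8 and 107 at 12 h. The 4 GPI-PLD 12 h arrays were below all other 12 arrays. PEX11A fell in GPI-PLD cells by -1.33 ± 0.31 on the log2 scale, 2.52-fold (adjusted p 0.00607), and differed by -0.40 ± 0.31 in LacZ cells (0.517). The difference between these changes was -0.93 ± 0.43 (unadjusted p 0.0432, adjusted p 0.637). The signals of 48 to 119 are below the filter, so the size of the fold depends on the pseudocount, and over the alternatives the log2 difference ran from -1.88 to -0.75. It no longer passed where only the 8 GPI-PLD arrays were fitted (adjusted p 0.0535), and it was not tested with the stricter filter. The other PEX11A probe set was dim throughout, with -0.69 ± 0.30 in GPI-PLD cells and -0.31 ± 0.30 in LacZ cells.

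PEX19 is the cytosolic chaperone of peroxisomal membrane proteins, and PEX3 is its receptor in the membrane. PEX19 signals with LacZ were 1535, 1287, 1449 and 1047 at 6 h and 1427, 1456, 1417 and 1362 at 12 h. PEX19 signals with GPI-PLD were 1338, 1495, 1366 and 1358 at 6 h and 1326, 995, 745 and 1012 at 12 h. The highest GPI-PLD array of 12 h was just below the lowest of 6 h, and the other 3 stood well below. PEX19 fell there by -0.45 ± 0.14 (adjusted p 0.0477) and gave 0.10 ± 0.14 in LacZ cells. Its call is the weakest of the list. It was lost in 18 of 26 alternatives (adjusted p up to 0.232), and another PEX19 probe set gave -0.13 ± 0.21.

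PEX3 signals with LacZ were 2638, 2352, 2476 and 2346 at 6 h and 2181, 1889, 2113 and 1715 at 12 h. PEX3 signals with GPI-PLD were 2309.8, 1995, 2269 and 2519.9 at 6 h and 1835, 2009, 1985 and 2297 at 12 h. The LacZ arrays did not overlap and the GPI-PLD arrays did, with differences of -0.31 ± 0.11 (adjusted p 0.0816) and -0.16 ± 0.11 (0.392). Other PEX3 probe sets gave 0.18 and 0.16 in LacZ cells and 0.19 and -0.33 in GPI-PLD cells. The import receptors PEX5 and PEX7 and the docking protein PEX14 had differences from -0.20 to 0.28, with PEX7 dim (81.1 to 415 over the 16 arrays) and its interval the widest of the list.

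Neither ketone body gene and neither regulator passed with time. ACAT1, the mitochondrial thiolase that joins acetyl-CoA, gave -0.12 ± 0.09 and 0.03 ± 0.09, and BDH1, which makes beta-hydroxybutyrate, -0.14 ± 0.22 and 0.24 ± 0.22. PPARA signals with LacZ were 308, 446, 391 and 146 at 6 h and 375, 178, 406 and 384 at 12 h. PPARA signals with GPI-PLD were 374, 372, 229 and 331 at 6 h and 353, 55, 198 and 376 at 12 h. The receptor gene was dim and spread widely in all groups, and its differences were 0.08 ± 0.38 and -0.49 ± 0.38, with 0.44 ± 0.32 in GPI-PLD cells on its other probe set. Without GPI-PLD 12 h replicate 2 the GPI-PLD difference was -0.09, and with the mean of both probe sets -0.03. PPARGC1A encodes a coactivator of oxidative genes. PPARGC1A signals with LacZ were 394, 364, 452 and 363 at 6 h and 449, 476, 507 and 506 at 12 h. PPARGC1A signals with GPI-PLD were 199.7, 379, 366 and 293 at 6 h and 429, 472, 362 and 313 at 12 h. Its means were higher at 12 h in both cell groups, by 0.27 ± 0.22 (adjusted p 0.555) and 0.31 ± 0.22 (0.414).

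Averaging the change with time over LacZ and GPI-PLD cells, a contrast chosen after seeing the data, used all 16 arrays. There 8 of 36 members fell and 0 rose (22.2% of members), where 8.33% of all genes fell and 7.79% rose. They were ECI2 (-0.38 ± 0.05, adjusted p 1.58e-05), CAT (-0.29 ± 0.05, 0.000481), ETFB (-0.34 ± 0.08, 0.00273), ACOX2 (-0.37 ± 0.08, 0.00279), PEX11A (-0.87 ± 0.22, 0.00657), ETFA (-0.18 ± 0.05, 0.0187), EHHADH (-0.53 ± 0.17, 0.0321) and PEX3 (-0.23 ± 0.07, 0.0334). EHHADH and PEX3 were called in 14 and 15 of 25 alternatives, and the other 6 in at least 24. By role as listed here they are 3 of 6 peroxisomal oxidation genes and 2 of 3 electron transfer genes. The others are 2 of 6 peroxins and 1 of 8 later enzymes listed as mitochondrial. That last gene is ECI2, and whether its protein is in mitochondria or peroxisomes of these cells was not measured. They include 0 of the dehydrogenases, shuttle genes, ketone body genes and regulators.

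The question the study's design names is whether GPI-PLD changes expression. At 6 h, 0 of 36 members passed limma's test between GPI-PLD and LacZ cells (0% of all genes), and 3 had an unadjusted p under 0.05 (8.33%, against 4.64% of all genes). At 12 h 0 passed (0% of all genes) and 4 had an unadjusted p under 0.05 (11.1%, against 7.21%). The fit without trend and robust also called 0 members at either time. The median log2 difference of the members was -0.03 at 6 h and 0.00 at 12 h, with 21 and 17 of 36 lower in GPI-PLD cells. At the median over members the unadjusted 95% interval reached 0.30 to either side. That width is not the detection limit of the adjusted test, in which larger estimated differences did not pass. At 12 h PEX19 at -0.48 and PEX11A at -1.12 had intervals wholly below 0 and did not pass limma's test (adjusted p 0.492 and 0.393).

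**Figure D4:**
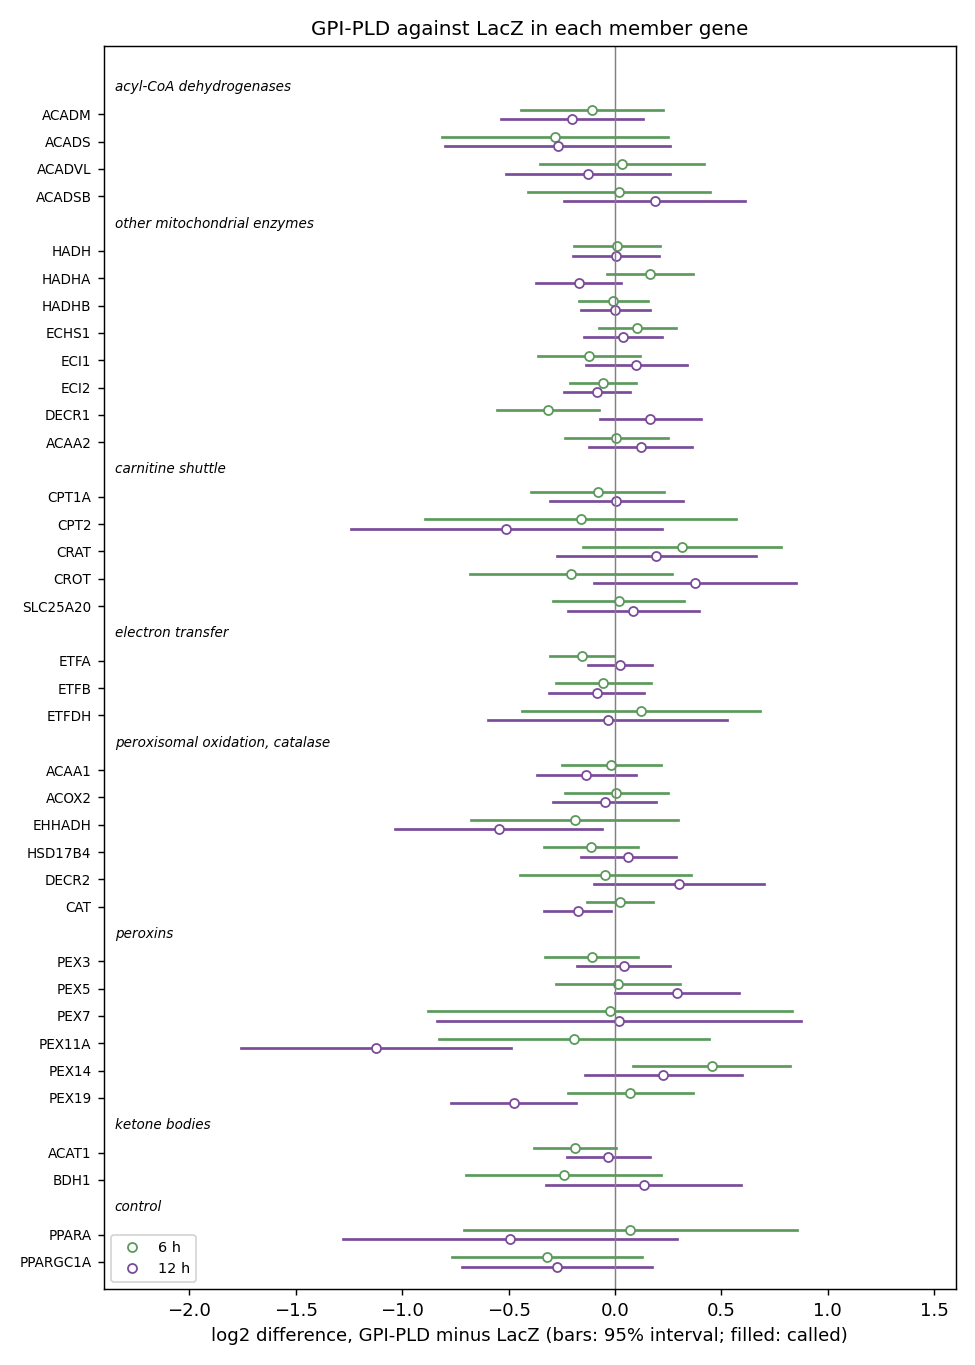
Log2 difference between GPI-PLD and LacZ cells for each tested member, by role, at 6 h (green) and 12 h (purple), with 95% intervals. No point is filled, since no adjusted p was under 0.05, and PEX11A at 12 h lies lowest at -1.12.

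The members with the smallest p at 6 h were DECR1, PEX14 and ETFA. DECR1 was lower in GPI-PLD cells, with signals of 2080.1, 2463, 1985 and 2156 against 2831, 2298, 2696 and 3073 and an overlap of 1 array of each (-0.32 ± 0.12, unadjusted p 0.0119, adjusted p 0.983). PEX14, part of the docking complex of peroxisomal import, had signals of 832, 596, 756 and 782 with GPI-PLD against 575, 586, 340.1 and 631 with LacZ at 6 h (0.45 ± 0.18, adjusted p 0.997). At 12 h the PEX14 signals were 675, 604, 814 and 808 against 617, 559, 587 and 664 (0.23 ± 0.18). The PEX14 arrays overlapped at both times, and another PEX14 probe set had the opposite sign at 6 h (-0.39 ± 0.45). ETFA differed by -0.16 ± 0.07 at 6 h (adjusted p 0.998) and 0.03 ± 0.07 at 12 h.

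At 12 h the smallest p belonged to PEX11A, PEX19 and CAT. The arrays of the 2 viruses did not overlap in these genes, which were taken by their small p. The share of all genes without such overlap was not counted. PEX11A differed by -1.12 ± 0.31, with GPI-PLD lower (adjusted p 0.393), PEX19 by -0.48 ± 0.14 (0.492) and CAT by -0.18 ± 0.08 (0.67). Since the GPI-PLD signals of PEX11A are below the filter, the size of its difference depends on the setting, from -1.63 to -0.51 over the alternatives. EHHADH was the fourth member with an unadjusted p under 0.05 (-0.55 ± 0.24, adjusted p 0.673). These differences use the same GPI-PLD 12 h arrays as the changes with time in GPI-PLD cells. At 6 h the same genes differed by -0.19 ± 0.31, 0.07 ± 0.14, 0.02 ± 0.08 and -0.19 ± 0.24. The other probe sets gave 0.09 ± 0.30 for PEX11A, 0.17 ± 0.21 for PEX19 and 0.03 ± 0.11 and 0.48 ± 0.36 for CAT at 12 h, none with the sign of the main set.

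CPT1A differed between the viruses by -0.08 ± 0.15 and 0.01 ± 0.15, HADHA by 0.17 ± 0.10 and -0.17 ± 0.10, PPARA by 0.07 ± 0.38 and -0.49 ± 0.38 and PPARGC1A by -0.32 ± 0.22 and -0.27 ± 0.22 at 6 h and 12 h. The PPARA value at 12 h was -0.09 without GPI-PLD 12 h replicate 2, the array with a signal of 55. Of these genes, PPARGC1A had the lower mean in GPI-PLD cells at both times, with overlapping arrays. Whether the GPI-PLD effect differed between the times was tested directly, and 0 of 36 members passed (0.0123% of all genes, 1 gene). An unadjusted p under 0.05 was found for 4 members (11.1%, against 7.53% of all genes), DECR1 (0.48 ± 0.16), PEX19 (-0.55 ± 0.20, adjusted p 0.496), HADHA and PEX11A. The fit without trend and robust called 0 members here too.

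Of 93 further genes of these pathways 73 were on the array and 61 were tested. In LacZ cells 3 rose and 3 fell with time, in GPI-PLD cells 3 and 3, each 4.92% of the 61, and 0 passed between the viruses at either time. These shares are near those of all genes, of which 3.64% rose and 3.25% fell with LacZ and 4.6% and 5.07% with GPI-PLD. The rises included PLIN2 and AGPS in both cell groups. PLIN2, a coat protein of lipid droplets and a PPAR target, read 8276, 8538, 10438 and 9082 with LacZ at 6 h, against 13102, 14365, 12002 and 15389 at 12 h (0.59 ± 0.08, adjusted p 4.03e-05). In GPI-PLD cells PLIN2 rose from 8436 ± 286 to 14913 ± 365 (0.82 ± 0.08, 3.51e-07). With the mean of its probe sets PLIN2 did not pass (0.16 and 0.35, adjusted p 0.797 and 0.414). AGPS, which makes ether lipids in peroxisomes, rose by 0.50 ± 0.12 (adjusted p 0.0141) and 0.44 ± 0.12 (0.0258). The GPI-PLD call of AGPS was lost in 8 of 26 alternatives (adjusted p up to 0.249), among them without GPI-PLD 6 h replicate 3 or 4 and without GPI-PLD 12 h replicate 1, 2 or 4, and the LacZ call in 1 (0.0609).

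PPARG, the fat cell member of the PPAR family, rose in LacZ cells by 0.67 ± 0.20 (adjusted p 0.0465), a call lost in 17 of 25 alternatives. GCDH, a dehydrogenase of lysine breakdown that also gives its electrons to the flavoprotein, rose in GPI-PLD cells from 454, 618, 506 and 479 to 806, 924, 912 and 715 (0.65 ± 0.17, 0.0136) and differed by -0.21 ± 0.17 in LacZ cells. The GCDH call was lost with the mean of its probe sets (adjusted p 0.0564). The difference between these GCDH changes was 0.86 ± 0.23 (adjusted p 0.376). Among the genes that fell, TXNIP, an inhibitor of thioredoxin, dropped in LacZ cells from 1290.3 ± 58.6 to 535 ± 187 (-1.23 ± 0.18, 7.05e-05) and in GPI-PLD cells by -0.57 ± 0.18 (0.0458), the latter call lost in 15 of 26 alternatives. The dehydrogenase gene HSD17B10 (-0.41 ± 0.11, 0.0244) and the peroxisomal transporter gene ABCD3 (-0.39 ± 0.11, 0.0326) fell in LacZ cells. The HSD17B10 call was lost in 4 of 26 alternatives (adjusted p up to 0.107), among them without LacZ 6 h replicate 3 and without LacZ 12 h replicate 1 or 2. The ABCD3 call was lost in 7 of 26 (up to 0.119), among them without LacZ 6 h replicate 1 or 4 and without LacZ 12 h replicate 2, 3 or 4.

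RXRA, the DNA-binding partner of the PPARs, fell in GPI-PLD cells from 1080.1, 1334, 1416 and 1679.8 to 611, 606, 1070.3 and 1010.5 (-0.73 ± 0.18, adjusted p 0.0114). In LacZ cells its arrays did not overlap either, with -0.44 ± 0.18 (0.169). The RXRA call was lost without GPI-PLD 6 h replicate 4 and with the mean of its probe sets (adjusted p up to 0.0546). IDH1, the isocitrate dehydrogenase of cytosol and peroxisomes, fell in GPI-PLD cells by -0.29 ± 0.09 (0.0448), a call lost in 12 of 26 alternatives. In the averaged contrast 4 of the 61 rose (PLIN2, AGPS, PPARG and SIRT1), 6.56% against 7.79% of all genes. There 7 fell (TXNIP, RXRA, PXMP2, ABCD3, HSD17B10, ACOT13 and IVD), 11.5% against 8.33%. The median log2 difference of the 61 with time was 0.01 with LacZ and -0.09 with GPI-PLD.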

How the data were processed

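The deposited values are MAS5 signals, an intensity on a linear scale, as the submitters' processing notes name them. Each array of the deposited table has a 2% trimmed mean of 1000.4. Scanner settings and further steps are not given in the sources used here. All value columns were used. The 37 genes and all lists were chosen with earlier results of these data known. Each gene was read by its 1-symbol probe set with the highest mean log2(signal + 63). The pseudocount of 63 is the 20th percentile of the signals, and genes under the 40th percentile of mean level (signal 188) were left out. All 37 gene IDs were found in a current gene table with the same symbols. In R 4.3.3, limma 3.58.1 (with statmod 1.5.0) was fitted to the 4 groups (lmFit, contrasts.fit, eBayes with trend and robust, 12 residual degrees of freedom and a median of 10.5 prior ones), and Benjamini-Hochberg adjustment ran over the 8102 genes within each contrast. The steps were tested on simulated data. Errors after log2 differences are standard errors.

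Values in every array were given for members called in a time contrast, for the 3 with the smallest p in each virus contrast, for the 2 in their difference, and for PPARA, PPARGC1A, CPT1A, HADHA and CAT. Related genes were named where called. Alternatives covered scaling, the pseudocount, the filter, the probe sets, eBayes, the arrays fitted and each array left out. The time contrast averaged over both viruses, and leaving out GPI-PLD 12 h replicates 2 and 4 together, were added after seeing the data. Replicates are numbered in deposited order. Plots were drawn with matplotlib 3.10.9 in Python 3.11.15.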

Additional observations from a re-analysis of the deposited data

Results flagged for a closer look

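In 9 of 144 sets of 4 arrays (36 members in 4 groups) a single array stood far from the other 3 by Dixon's criterion, which chance does in about 1 of 20 such sets. In LacZ cells at 12 h these were ACADS at 631.6 in replicate 3 (others 460.0 to 486), HADH at 1853.6 in replicate 2 (others 2139 to 2154), ETFDH at 169.3 in replicate 4 (others 384 to 417), EHHADH at 984.6 in replicate 1 (others 551 to 583) and PPARA at 178.1 in replicate 2 (others 375 to 406). In GPI-PLD cells at 12 h they were CROT at 371.9 in replicate 4 (others 607 to 628), ETFB at 16240.2 in replicate 2 (others 10876 to 11645), EHHADH at 616.7 in replicate 3 (others 350.2 to 391) and DECR2 at 1718.4 in replicate 4 (others 974 to 1031). All 9 were 12 h arrays, and no cause was tested. Without GPI-PLD 12 h replicate 2 the ETFB difference with time in GPI-PLD cells was -0.50 (adjusted p 0.00135).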

How the results depend on the processing

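The counts of 0 members between the viruses and in the difference between the times held in all alternatives run. The count with time in LacZ cells (2) was 6 with each array scaled to its 75th percentile, 4 with probe sets averaged per gene, and 1 with eBayes without trend and robust or with only the 8 arrays compared. With single arrays left out it was 1 to 3 (1 without LacZ 6 h replicate 3 or LacZ 12 h replicate 1, 2 or 4). The count in GPI-PLD cells (6) was 3 with eBayes without trend and robust and 3 with only the 8 arrays compared, and 3 to 7 with single arrays left out (3 without GPI-PLD 6 h replicate 2 or 4). The averaged contrast gave 6 to 9 against 8 with single arrays left out and 10 with the 75th percentile. ECI2 passed in every alternative run in both cell groups. Values that changed sign did not pass under any setting. CAT between the viruses was -0.0023 with the 75th percentile and -0.0092 with averaged probe sets at 6 h, and 0.11 with averaged probe sets at 12 h. CPT1A between the viruses at 6 h was 0.053 with averaged probe sets. With single arrays left out, CAT between the viruses at 6 h ran from -0.021 to 0.062 (below 0 without replicate 1 of LacZ 6 h or replicate 2 of GPI-PLD 6 h), CPT1A from -0.17 to 0.12 (above 0 without GPI-PLD 6 h replicate 3) and PPARA from -0.20 to 0.23 (below 0 without LacZ 6 h replicate 4). CPT1A between the viruses at 12 h ran from -0.043 to 0.085 (below 0 without replicate 1 of GPI-PLD 12 h or replicate 3 or 4 of LacZ 12 h), CPT1A with time in GPI-PLD cells from -0.25 to 0.038 (above 0 without GPI-PLD 6 h replicate 1 or 4), and PPARA with time in LacZ cells from -0.19 to 0.30 (below 0 without LacZ 6 h replicate 4 or LacZ 12 h replicate 3). The cause of these moves was not tested. No paired analysis was possible because the labels give no replicate numbers. The 75th percentile scaling gave a median of all genes with time in LacZ cells of -0.04 against 0.01.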
